A study of Mus musculus with 2 samples.

Results

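The chemokines and atypical chemokine receptors followed here are 10 genes of 21951 gene features in the deposited matrix: the CXC ligands Cxcl9, Cxcl10, Cxcl12, Cxcl16 and Cxcl1, the CC ligands Ccl2, Ccl5 and Ccl21a, and the atypical receptors Ackr1 and Ackr3. They were chosen by their measured levels in the same cells as described below, in CPM (counts of unique molecular identifiers, UMIs, scaled to the group's total, where each UMI stands for 1 captured RNA molecule), across the hashtag groups, the cells without a hashtag and cells gated by marker genes. Those levels are therefore given as a description, with no test, and nothing is supported with them. All 10 were found in the matrix, and each had between 427 and 45649 UMIs over the barcodes that passed the quality limits.

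Chemokines are small secreted proteins that guide leukocytes through G protein-coupled receptors on the migrating cell. Endothelial cells (ECs) present them on the vessel wall, where they help to arrest leukocytes, and some are made only after stimulation by interferon or by NF-kappaB signalling, whereas others are made without it. Atypical receptors bind chemokines without the usual G protein signal and take them up or carry them across the cell: ACKR1 binds many inflammatory CXC and CC ligands and is known from venules, and ACKR3 takes up CXCL12.

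Liver and heart ECs of C57BL/6 pups aged P6 to P7 were sorted by flow cytometry on the presence or absence of Tomato signal, labelled with hashtag antibodies and run together in 1 10x Genomics library, which GEO lists as 2 samples, its gene expression reads and its hashtag reads. The 6 hashtags stand for control, iSuRe-Cre (iSureCre in the labels) and iSuRe-HadCre (iSureHadCre) heart and the same 3 genotypes in liver. The iSuRe groups carry Cdh5-CreERT2, a Cre recombinase that tamoxifen switches on in ECs, with iSuRe-Cre or iSuRe-HadCre, alleles that report Cre activity with a membrane Tomato protein and make more Cre. All groups were given 1 dose of 40 mg/kg 4-hydroxytamoxifen at postnatal day 3 and dissected 3 days later. The labels name no floxed gene. The study used these cells to look at the deletion of Notch1, which it reports as very efficient in the iSuRe cells. The genotype of the control and the number of pups behind each hashtag were not given in the sources used here. With 1 hashtagged sample per group there is no replicate and no test, and the animals' spread is unknown. Intervals are exact 95% intervals and cover counting error only. UMIs of 1 cell are not independent of each other, so that the intervals are too narrow where a few cells hold most of a gene's UMIs.

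Of 14348 barcodes that passed the quality limits, 7704 were Cdh5-positive, and 1988 of these carried 1 hashtag. A further 5585 (72.5%) had no hashtag and 131 had several. The groups held 254 cells in control heart, 435 in iSuRe-Cre heart, 311 in iSuRe-HadCre heart, 54 in control liver, 858 in iSuRe-Cre liver and 76 in iSuRe-HadCre liver, with 624048 to 9341120 UMIs per group. The median was 16379 UMIs per cell in iSuRe-Cre heart and 7322 to 9100 in the other groups. All 6 endothelial markers were detected in every group, with summed levels of 3491 to 4381 CPM. Stab2, which defines liver sinusoidal ECs, was at 1446 CPM in iSuRe-Cre liver, 387 in iSuRe-HadCre liver and 30.4 in control liver, where only 1 of the 54 cells had 3 or more Stab2 UMIs, so that the control liver group held almost none of that cell type. Notch1 was at 138 and 160 CPM in control heart and liver and at 12.6 to 30.7 in the 4 iSuRe groups. Each ratio of an iSuRe group to control thus also sets low against high Notch1. The reporter allele and the loss of Notch1 cannot be told apart in these ratios. WPRE, a stretch of the reporter transcript, was at 562 CPM in control heart and 396 in control liver, above the 63.5 and 105 in iSuRe-Cre heart and liver and below the 1055 and 1070 in iSuRe-HadCre. Only 145 of 435 iSuRe-Cre heart cells and 379 of 858 iSuRe-Cre liver cells passed the study's WPRE limit.

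Cxcl9 and Cxcl10 encode ligands of CXCR3, the receptor of activated T cells and NK cells, and both are known as targets of interferon. They are neighbours on mouse chromosome 5 (GRCm38): Cxcl9 lies at chr5:92321347-92328079 and Cxcl10 at chr5:92346638-92348889, both on the minus strand and 18558 bases apart. The 250 bases before the RefSeq start of each (GRCm38.p6, minus strand, at chr5:92328080-92328329 and chr5:92348890-92349139) are printed 5′ to 3′ because both members were high in the same groups, with those of Cxcl12 (chr6:117168285-117168534, plus strand) as the ligand with another order of groups. Capitals mark matches to the motifs searched.
Cxcl9: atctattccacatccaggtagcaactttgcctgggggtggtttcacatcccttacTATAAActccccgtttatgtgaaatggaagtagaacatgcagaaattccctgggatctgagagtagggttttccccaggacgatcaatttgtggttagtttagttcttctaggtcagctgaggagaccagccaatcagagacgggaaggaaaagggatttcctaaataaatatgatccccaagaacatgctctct
Cxcl10: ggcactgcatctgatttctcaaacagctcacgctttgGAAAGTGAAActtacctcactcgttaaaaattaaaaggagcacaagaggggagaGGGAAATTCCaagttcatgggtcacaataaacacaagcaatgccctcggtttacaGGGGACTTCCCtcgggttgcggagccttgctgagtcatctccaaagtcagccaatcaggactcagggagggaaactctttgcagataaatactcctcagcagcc
Cxcl12: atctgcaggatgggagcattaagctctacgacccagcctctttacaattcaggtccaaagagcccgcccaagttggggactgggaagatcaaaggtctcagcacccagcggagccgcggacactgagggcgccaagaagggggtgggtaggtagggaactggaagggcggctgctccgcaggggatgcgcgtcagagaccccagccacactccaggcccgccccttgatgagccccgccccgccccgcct

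The motifs were the interferon-stimulated element GAAANNGAAA, the interferon-gamma activated site TTCNNNGAA and the NF-kappaB consensus, each on both strands, and the TATA-box letters TATAAA on the gene's strand. The Cxcl10 stretch held 1 interferon-stimulated element, 213 to 204 bases before the start, and the NF-kappaB consensus at 159 to 150 bases and, as 2 overlapping matches, from 104 to 94 bases. In the Cxcl9 stretch only TATAAA matched, 195 to 190 bases before the start, and the Cxcl12 stretch held none of the 4 motifs. Of the 10 members, 7 had an entry in the RefSeq table. Over 27025 RefSeq promoters of the same length, 3.04% held the interferon-stimulated element, 7.18% the interferon-gamma activated site, 7.01% the NF-kappaB consensus and 8.12% TATAAA. These matches describe letters only, and a motif outside the 250 bases was not searched.

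Both CXCR3 ligands were highest in iSuRe-Cre heart. Cxcl9 was at 19.5 CPM in control heart (59 UMIs, 95% interval 14.8 to 25.1), 404 in iSuRe-Cre heart (3358 UMIs, 391 to 418) and 97.3 in iSuRe-HadCre heart (86.7 to 109). In liver it was at 0 in control (0 UMIs, for which a limit of 3 counts is 4.81 CPM), 113 in iSuRe-Cre (1051 UMIs, 106 to 120) and 20.5 in iSuRe-HadCre (14 UMIs, 11.2 to 34.4). Both iSuRe groups of heart were thus above control, iSuRe-HadCre less far than iSuRe-Cre. Relative to control heart the ratio for iSuRe-Cre was 20.8 (16.1 to 27.3) and that for iSuRe-HadCre 5 (3.77 to 6.72), and iSuRe-HadCre stood at 0.241 (0.213 to 0.271) of iSuRe-Cre. In liver Cxcl9 in iSuRe-Cre was 23.4 times control with the control's 0 UMIs set to 3 counts (lower 95% limit 19). This ratio ran from 6.32 to 29.9 over the alternatives and was 9.45 over capillary cells alone. The control's 0 UMIs were set to 3 counts there too, over 13 cells with 133769 UMIs in place of 624048. The lower value is therefore not read as a smaller difference. Liver iSuRe-HadCre was at 0.182 (0.0993 to 0.307) of iSuRe-Cre. Control liver and iSuRe-HadCre liver together had fewer than 20 Cxcl9 UMIs, the minimum over 2 groups for a ratio, and were not compared. Cxcl9 in iSuRe-HadCre liver and in control heart were not apart beyond counting error, and the other neighbours in the order of groups were.

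Cxcl10 was at 38.9 CPM in control heart (118 UMIs, 32.2 to 46.6), 527 in iSuRe-Cre heart (4373 UMIs, 511 to 542) and 42.2 in iSuRe-HadCre heart (131 UMIs, 35.3 to 50.1). In liver it was at 9.61 in control (6 UMIs, 3.53 to 20.9), 304.9 in iSuRe-Cre (2848 UMIs, 294 to 316) and 32.2 in iSuRe-HadCre (22 UMIs, 20.2 to 48.8). Unlike Cxcl9, Cxcl10 did not separate iSuRe-HadCre heart from control heart, at a ratio of 1.08 (0.839 to 1.4), whereas iSuRe-Cre heart was 13.5 times control (11.3 to 16.4). In liver iSuRe-Cre was 31.7 times control (14.6 to 86.5), where 1 cell held 5 of the 6 control UMIs, and iSuRe-HadCre 3.35 times (1.32 to 10.1). The first of these ratios ran from 5.99 to 61.2 over the alternatives and was 178 without the top cell, and the second ran from 1.22 to 4.22. In iSuRe-HadCre Cxcl10 was at 0.0802 (0.0669 to 0.0954) of iSuRe-Cre in heart and 0.106 (0.0661 to 0.16) in liver. Free RNA, measured in barcodes of 10 to 100 UMIs, held Cxcl10 at 108 CPM and Cxcl9 at 46.6, both above the levels in control cells of either organ and below those in both iSuRe-Cre groups. The iSuRe-HadCre levels of Cxcl10 in both organs and of Cxcl9 in liver were below free RNA too, and with free RNA subtracted too few Cxcl10 UMIs were left for a ratio of iSuRe-HadCre to control liver. Cdh5-positive cells without a hashtag were in between, at 68.5 for Cxcl9 and 139 for Cxcl10.

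**Figure D1:**
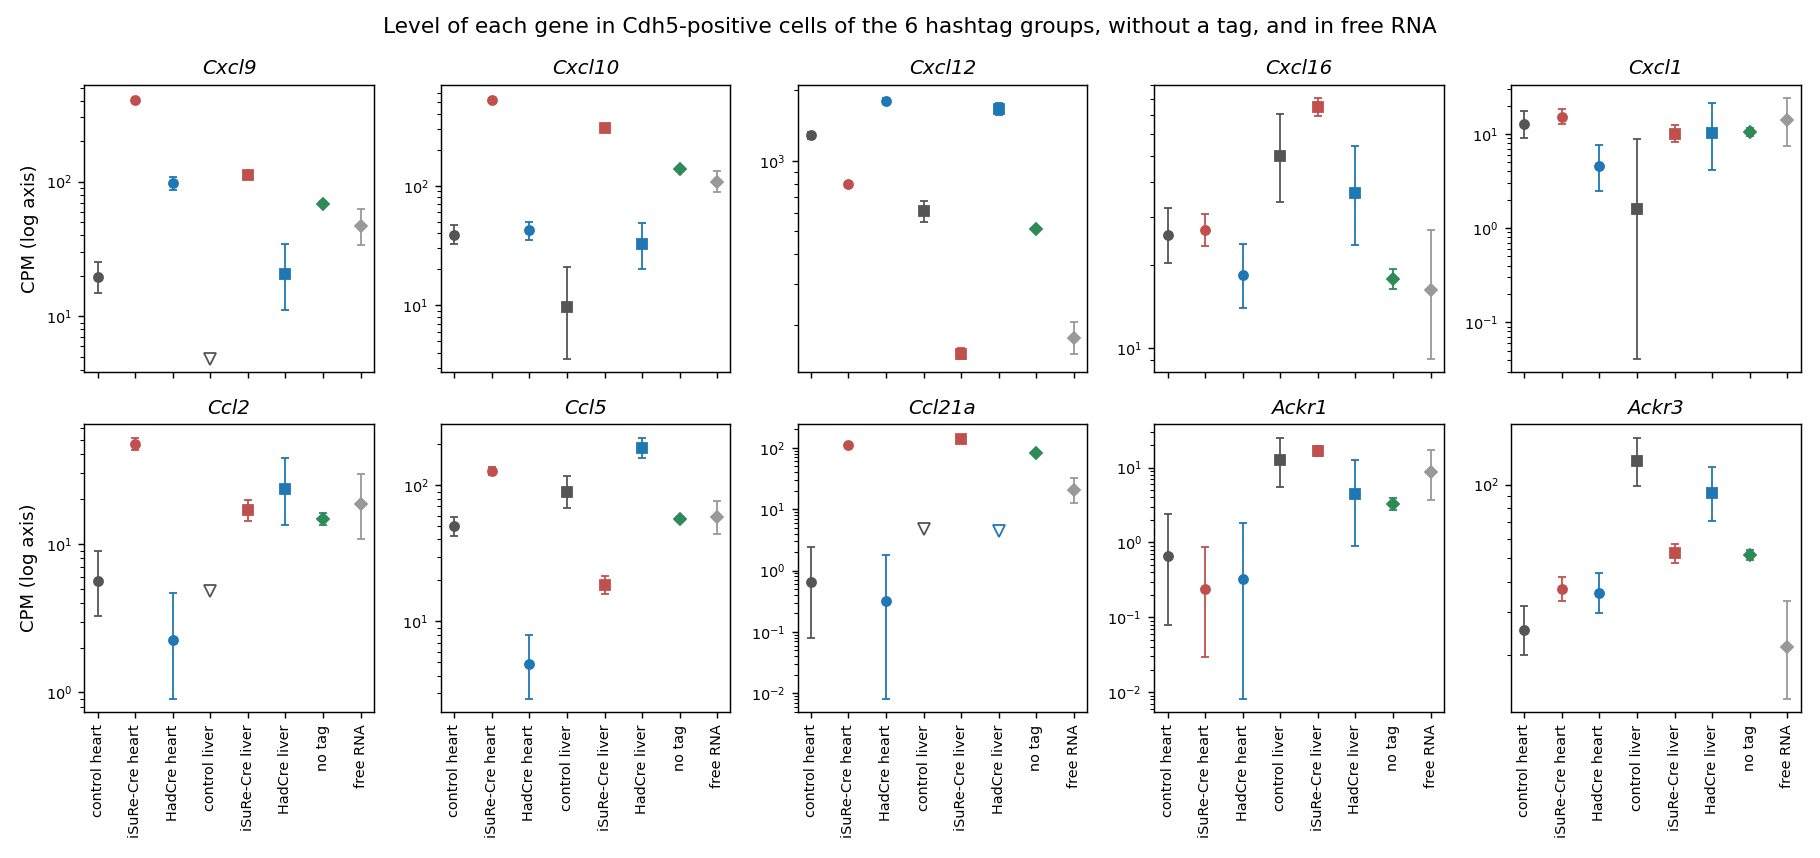
CPM (log axis) of each of the 10 genes in the 6 hashtag groups, in Cdh5-positive cells with no hashtag and in free RNA, with exact 95% Poisson intervals as bars and groups at 0 UMIs drawn as open triangles at the limit of 3 counts. Cxcl9 and Cxcl10 stand highest in iSuRe-Cre heart, at 404 and 527, while Cxcl12 stands lowest in iSuRe-Cre liver, at 151, and highest in iSuRe-HadCre heart, at 1806.

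Within each organ, the shares of cells with the transcript had the same order of genotypes as the levels. Cxcl9 was found in 4.72% of control heart cells (95% binomial interval 2.46 to 8.11), 35.4% of iSuRe-Cre heart cells (30.9 to 40.1) and 19.3% of iSuRe-HadCre heart cells (15.1 to 24.1), and Cxcl10 in 7.48% (4.56 to 11.4), 39.3% (34.7 to 44.1) and 13.2% (9.63 to 17.5). In liver Cxcl9 was in 0 of 54 control cells, for which the exact upper limit is 6.6%, in 20.3% of iSuRe-Cre cells and in 6.58% of iSuRe-HadCre cells, and Cxcl10 in 3.7%, 45.1% and 13.2%. Because iSuRe-Cre heart cells were deeper, each cell was also thinned to 2000 UMIs, at which no cell was lost: the shares in heart became 1.92%, 18.6% and 10.5% for Cxcl9 and 2.67%, 20.2% and 4.97% for Cxcl10. In liver the thinned shares were 0%, 9.83% and 3.8% for Cxcl9 and 1.57%, 26% and 6.26% for Cxcl10. In 87 Col2a1 chondrocytes, which should lack both ligands, the thinned shares were 0.0845% and 0.296%. The unthinned shares there were 1.15% and 3.45%.

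Within a group the transcripts were uneven. Cells with 10 or more Cxcl9 UMIs numbered 56 in iSuRe-Cre heart, 24 in iSuRe-Cre liver, 7 in iSuRe-HadCre heart and 1 in control heart, and there were none in the other 2 groups. For Cxcl10 there were 63, 82, 3 and 1 such cells in the same 4 groups. The control heart levels turned on single cells, since 1 cell held 28 of its 59 Cxcl9 UMIs and 1 held 69 of its 118 Cxcl10 UMIs. With the highest cell of each gene left out of each group, a choice made after seeing the data, the heart ratios to control were 36.5 (iSuRe-Cre) and 8.42 (iSuRe-HadCre) for Cxcl9 and 31 and 2.14 for Cxcl10. In iSuRe-Cre heart 14 cells held 50% of the Cxcl9 UMIs and 15 held 50% of the Cxcl10 UMIs, and in iSuRe-Cre liver 12 and 47 cells did.

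Cxcl9 and Cxcl10 were often found in the same cells. In iSuRe-Cre heart Cxcl10 was present in 64.3% of 154 Cxcl9-positive cells and in 25.6% of the 281 Cxcl9-negative cells, and in iSuRe-Cre liver in 70.7% of 174 and 38.6% of 684. The same difference was seen in iSuRe-HadCre heart, with 26.7% of 60 against 9.96% of 251, and in cells without a hashtag, with 39.6% of 712 against 17.6% of 4873. Cxcl9-positive cells were deeper in iSuRe-Cre heart, at a median of 19705 UMIs against 15199, and about as deep in iSuRe-Cre liver, at 8925 against 8722. In both iSuRe-Cre groups the CXCR3 ligands were also found in cells that did not pass the WPRE limit: in heart Cxcl9 was at 224 CPM in the cells above it and 494 in the others, with 389 and 595 for Cxcl10, and in liver the values were 93 and 126 for Cxcl9 and 323 and 292 for Cxcl10. Cells with macrophage markers held at most 3.82% of the UMIs of either gene in any group, and Cxcl9 was at 0 in the 91 cells of the macrophage gate.

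EC types were compared over all cells and within single groups, since the groups differ in makeup. A gate is a minimum count of marker UMIs in 1 cell. The capillary gate on Tcf15 and Fabp4, genes of fatty-acid-handling capillaries, took 4757 of the 7704 Cdh5-positive cells, so gating was repeated with Tcf15 alone, after seeing the data, and the following values use it. Cxcl9 was at 196 CPM in 859 capillary cells, 131 in 618 sinusoidal cells (Stab2) and 7.27 in 297 large-vessel cells (Gja5, Vwf), and Cxcl10 was at 250 in capillary, 394 in sinusoidal and 99.5 in large-vessel cells. These pooled values mix groups, and 440 of the sinusoidal cells were from iSuRe-Cre liver. Within cells without a hashtag alone, Cxcl9 was at 109 in capillary, 51.5 in sinusoidal and 16.9 in large-vessel cells, and Cxcl10 at 210, 160 and 106. In 123 endocardial cells (Npr3) Cxcl9 was at 159, of which 95.1% came from 1 cell. Within heart cells of the wider capillary gate control had Cxcl9 at 18.6 CPM, iSuRe-Cre at 444 and iSuRe-HadCre at 112, and Cxcl10 at 43, 606 and 37.1. Over those cells the ratios to control were 23.8 and 5.99 for Cxcl9 and 14.1 and 0.863 for Cxcl10, close to those over all heart ECs. In iSuRe-Cre liver the 440 sinusoidal cells had Cxcl9 at 153 and Cxcl10 at 454, while its 116 large-vessel cells had 1.96 and 113. No comparison within sinusoidal cells could be made between genotypes, as the other liver groups held too few of them. Large-vessel cells of control liver (19 cells) and iSuRe-HadCre liver (13 cells) had Cxcl10 at 25.5 and 30.5 and Cxcl9 at 0.

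The receptor and the interferon pathway around these ligands were measured as well. Cxcr3 was at 0 in 5 of the 6 EC groups, at 0.642 CPM in iSuRe-Cre liver, and at 36.7 in the 56 T or NK cells of the library. Of 8 interferon-gamma signalling genes counted against control, 5 were not past 2-fold in iSuRe-Cre of either organ and 7 in iSuRe-HadCre. None was lower, and those reported here were higher than in control. In iSuRe-Cre heart these were the guanylate-binding protein genes Gbp2, at 115 against 37.3 CPM, and Gbp4, at 70.6 against 27.7, and in iSuRe-HadCre heart Gbp4. In iSuRe-Cre liver the kinase gene Jak1 (563 against 252) and the transcription factor gene Irf1 (148 against 59.3) were higher, and in iSuRe-HadCre liver Irf1 (145 against 59.3). Of 8 NF-kappaB genes (7 counted in iSuRe-HadCre liver), at most 1 was past 2-fold in each of the 4 comparisons with control. Over all genes 9.86% (iSuRe-Cre) and 7.53% (iSuRe-HadCre) were past 2-fold in heart, and 16.9% and 8.19% in liver. Counts this small do not set the NF-kappaB list apart from all genes, and nothing is read from those of the interferon-gamma list.

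Cxcl12 ranked the groups differently from the CXCR3 ligands. It encodes the ligand of CXCR4 and of ACKR3, is made without inflammation by ECs and stromal cells, and lies at chr6:117168535-117181367 on the plus strand. It was at 1283 CPM in control heart (3889 UMIs, 1243 to 1324), 794 in iSuRe-Cre heart (6597 UMIs, 775 to 814) and 1806 in iSuRe-HadCre heart (5603 UMIs, 1759 to 1854). Liver levels were 609 in control (380 UMIs, 549 to 673), 151 in iSuRe-Cre (1406 UMIs, 143 to 159) and 1662 in iSuRe-HadCre (1135 UMIs, 1567 to 1761). All neighbours in the order of the 6 groups were apart beyond counting error. In both organs iSuRe-Cre was thus below control and iSuRe-HadCre above it. The ratio to control was 0.619 (0.595 to 0.644) in iSuRe-Cre heart and 1.41 (1.35 to 1.47) in iSuRe-HadCre heart, neither past 2-fold, and 0.247 (0.221 to 0.278) and 2.73 (2.43 to 3.07) in liver. Between the iSuRe groups, iSuRe-HadCre was 2.27 times iSuRe-Cre in heart (2.19 to 2.36) and 11 times in liver (10.2 to 11.9). Over the alternatives this heart ratio ran from 1.4 to 2.63, on the same side of 2-fold in 9 of 11. The ratio of iSuRe-Cre to control heart ran from 0.565 to 0.917.

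In heart the share of cells with Cxcl12 did not follow its level. Among heart cells 60.6% of control, 40.5% of iSuRe-Cre and 48.9% of iSuRe-HadCre had a Cxcl12 UMI, and among liver cells 31.5%, 20.3% and 36.8%, with thinned shares of 41.5%, 20.1%, 35.4%, 21.2%, 9.94% and 26%. Chondrocytes, as a background, were at 2.67% after thinning. So iSuRe-HadCre heart had a higher level than control heart and a lower share of positive cells. Cxcl12 was concentrated in few cells: 19 cells held 50% of its UMIs in control heart and in iSuRe-HadCre heart, 14 in iSuRe-Cre heart, 8 in iSuRe-Cre liver and 2 in each of control liver and iSuRe-HadCre liver. The liver values of control and iSuRe-HadCre therefore rest on a pair of cells each. Cells above the WPRE limit had more Cxcl12 than the others in iSuRe-Cre, at 1219 against 583 CPM in heart and 228 against 95.3 in liver. Heart cells above the limit had 1329 CPM in control and 1707 in iSuRe-HadCre, so that among them iSuRe-Cre was close to control. Within the wider capillary gate of heart, control had Cxcl12 at 1212 CPM, iSuRe-Cre at 899 and iSuRe-HadCre at 1974, with ratios to control of 0.741 and 1.63. In liver the ratio of iSuRe-Cre to control was 0.969 over capillary cells, of which control had 13, against 0.247 over all liver ECs, and that of iSuRe-HadCre to iSuRe-Cre was 4.09.

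Among EC types by the Tcf15 gating, Cxcl12 was at 858 CPM in capillary, 650 in large-vessel and 114 in sinusoidal cells. The first gating, which left out cells of more than 1 EC gate, kept 54 large-vessel cells at 1793, 4 of which held 50% of the UMIs. In iSuRe-Cre liver the 440 sinusoidal cells were at 59.8 and the 197 cells of no gate at 550, near the 524 of the 15 such cells in control liver. Cells with 3 or more Stab2 UMIs made up 59.9% of iSuRe-Cre liver, 19.7% of iSuRe-HadCre liver and 1.85% of control liver, so that the EC makeup of the groups and Cxcl12 moved together; their part in the liver difference was not tested. Outside the endothelium, mesenchymal cells had 180 and smooth muscle cells 148 CPM. Free RNA held 176, and iSuRe-Cre liver was below that. The receptor gene Cxcr4 was low in ECs, at 12.2, 3.13 and 13.9 CPM in control, iSuRe-Cre and iSuRe-HadCre heart and at 8.01, 2.46 and 2.93 in liver, and at 29.3 in the 54 cells of the first large-vessel gate. Like Cxcl12, Cxcr4 was lowest in iSuRe-Cre among the heart groups.

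**Figure D2:**
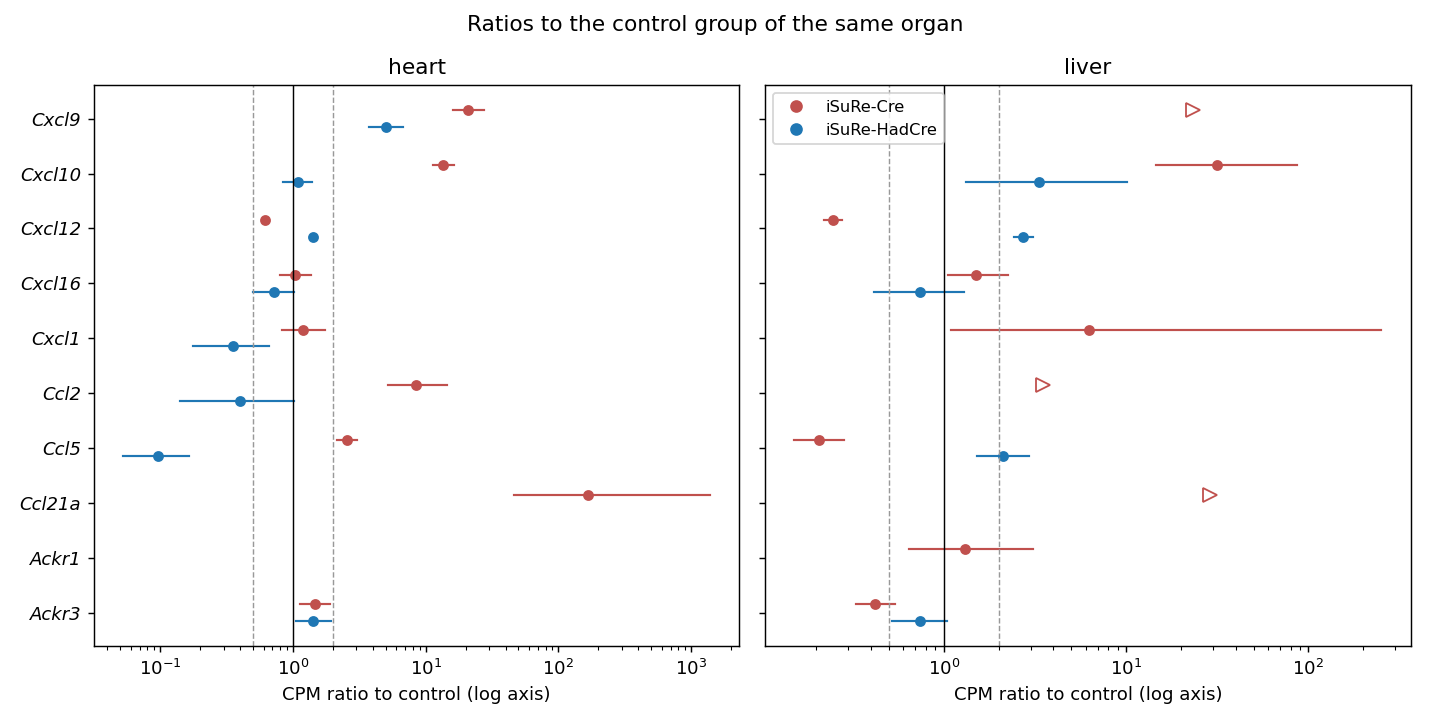
Ratio of CPM in iSuRe-Cre (red) and iSuRe-HadCre (blue) to control in heart and in liver (log axis), with exact conditional 95% intervals as lines. Dashed lines stand at 0.5 and 2, and open triangles are ratios to a control at 0 UMIs, set to 3 counts. Members with fewer than 20 UMIs over the 2 groups are not drawn. Cxcl12 is the member with iSuRe-Cre below 1 and iSuRe-HadCre above 1 in both organs, at 0.619 and 1.41 in heart and 0.247 and 2.73 in liver.

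Ackr3, which encodes the receptor that takes up CXCL12 (chr1:90203980-90216751, plus strand), was higher in liver than in heart ECs of each genotype. It was at 25.4 CPM in control heart (77 UMIs, 20.1 to 31.8), 37.2 in iSuRe-Cre heart (309 UMIs, 33.2 to 41.6) and 36.1 in iSuRe-HadCre heart (112 UMIs, 29.7 to 43.4). Among the liver groups it was at 125 in control (78 UMIs, 98.8 to 156), 52.2 in iSuRe-Cre (488 UMIs, 47.7 to 57.1) and 92.2 in iSuRe-HadCre (63 UMIs, 70.9 to 118). Heart ratios to control were 1.46 (1.14 to 1.9) and 1.42 (1.05 to 1.92), with iSuRe-HadCre at 0.97 (0.774 to 1.21) of iSuRe-Cre. In liver iSuRe-Cre was at 0.418 (0.329 to 0.538) of control, iSuRe-HadCre at 0.738 (0.521 to 1.04). Control liver was at 4.92 times control heart (3.54 to 6.83). Free RNA held Ackr3 at 21.7, close to control heart. The thinned share of cells with Ackr3 was 4.86%, 6.64% and 5.68% in heart, against 3.47% in chondrocytes, and 19.5%, 7.97% and 12.3% in liver.

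Ackr3 marked large vessels and the endocardium. By the Tcf15 gating it was at 189 CPM in large-vessel and 127 in endocardial cells, against 22.9 in capillary and 14.5 in sinusoidal cells. Cells with large-vessel markers held 87.2% of the Ackr3 UMIs of control liver, 70.1% of iSuRe-Cre liver and 85.7% of iSuRe-HadCre liver, and 11.6% to 27.2% in the heart groups. These cells were 59.3%, 21.9% and 36.8% of the 3 liver groups, in the same order as the Ackr3 level. Within large-vessel cells of liver the level was 260 in control (19 cells), 169 in iSuRe-Cre (116 cells) and 343 in iSuRe-HadCre (13 cells), so the order of control and iSuRe-HadCre was not the one over all liver ECs. Over the wider capillary gate iSuRe-Cre liver was at 2.29 times control, the other direction. The control had only 13 cells there, with 133769 UMIs of all genes, so this ratio is uncertain.

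Cxcl16 (chr11:70453983-70459984, minus strand) encodes a membrane-bound ligand of CXCR6 that also takes up oxidised lipoproteins. It was at 25.7 CPM in control heart (78 UMIs, 20.3 to 32.1), 26.9 in iSuRe-Cre heart (223 UMIs, 23.4 to 30.6) and 18.4 in iSuRe-HadCre heart (57 UMIs, 13.9 to 23.8). Liver control was at 49.7 (31 UMIs, 33.8 to 70.5), iSuRe-Cre liver at 75.2 (702 UMIs, 69.7 to 80.9) and iSuRe-HadCre liver at 36.6 (25 UMIs, 23.7 to 54). Liver was above heart in each genotype: it was 2.8 times heart in iSuRe-Cre (2.4 to 3.27), 1.99 in iSuRe-HadCre (1.19 to 3.24) and 1.93 in control (1.23 to 2.96), and no ratio to control was past 2-fold. The ratio of iSuRe-Cre to control liver ran from 1.37 to 2.69 over the alternatives for the hashtag calls and limits, on the same side of 2-fold in 6 of 11, and was 2.49 without the top cell of each group, since 1 control cell held 14 of the 31 UMIs. Without the top cell control liver was at 1.21 times control heart, and over capillary cells alone iSuRe-Cre liver was at 0.984 of heart. Only iSuRe-Cre liver and control liver were neighbours apart beyond counting error, at 1.51 (1.06 to 2.24), and iSuRe-HadCre liver was at 0.487 (0.313 to 0.725) of iSuRe-Cre liver. Thinned shares of positive cells were 4.65%, 5.54% and 3.68% in heart and 7.1%, 13.9% and 8.21% in liver, against 0.349% in chondrocytes. In iSuRe-Cre liver 544 of 702 Cxcl16 UMIs (77.5%) were in the Stab2-positive cells, which were 59.9% of the group. Unlike Cxcl12 it was spread widely there, with 113 cells holding 50% of the UMIs. Sinusoidal cells had 85.7 CPM, and the receptor gene Cxcr6 was at 76.5 in T or NK cells.

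**Figure D3:**
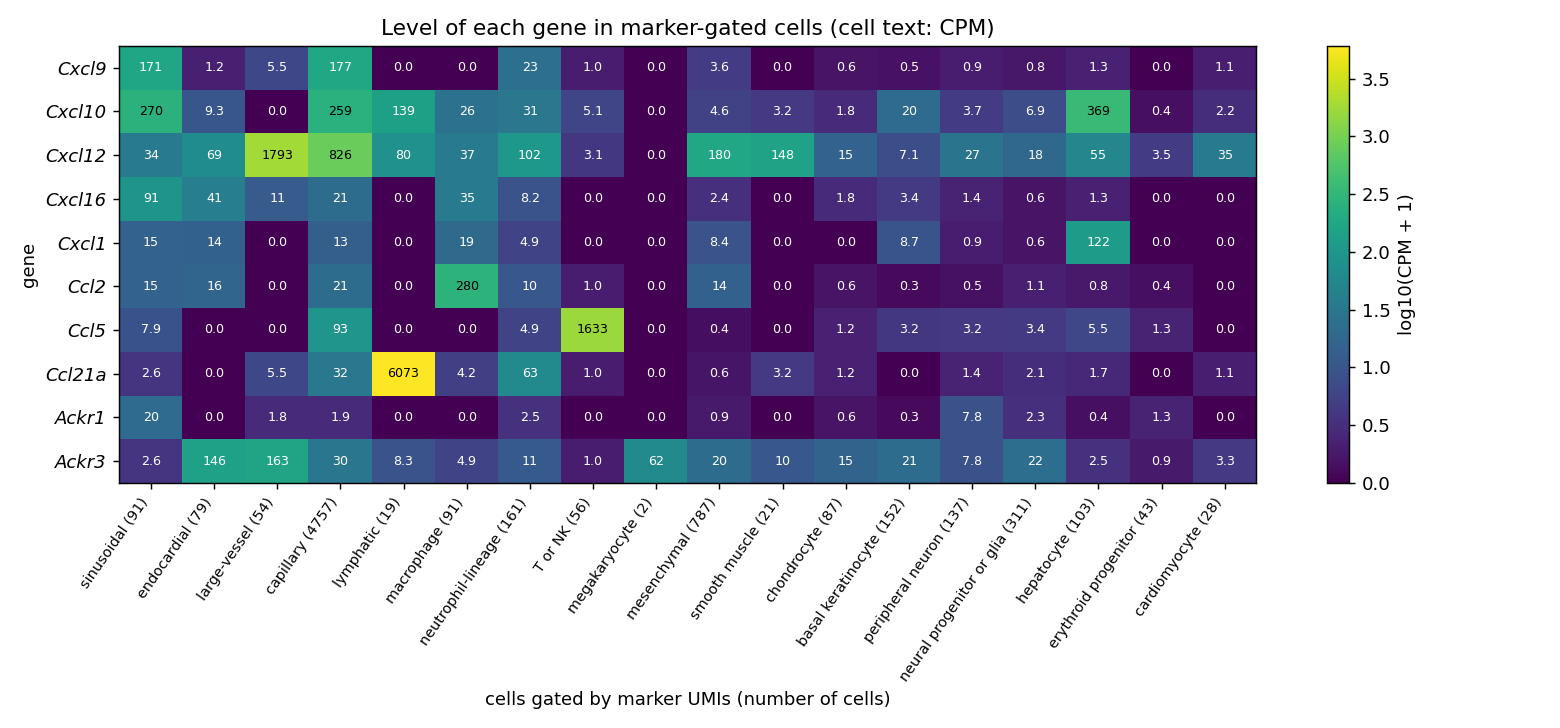
Heatmap of the 10 genes (rows) in the 18 marker gates (columns), with CPM printed and coloured on a scale of log10 of the value plus 1. Ccl21a fills the lymphatic gate (19 cells, also high in hepatocyte markers) at 6073, Ccl5 the T or NK gate at 1633 and Cxcl12 the large-vessel gate at 1793. Cxcl1 is highest in hepatocytes at 122.

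Ccl21a, Ccl5 and Ccl2, the CC ligands, were carried by a few cells of each group. Ccl21a (chr4:42772860-42773993, minus strand) encodes a ligand of CCR7 that lymphatic ECs display to dendritic and T cells. Its paralogues are nearly identical in sequence, Ccl21b was at 0 in all groups and Ccl21c was not among the features used here, so counts of Ccl21a are uncertain. It was at 111 CPM in iSuRe-Cre heart (918 UMIs) and 139 in iSuRe-Cre liver (1297 UMIs), and the other 4 groups had 0 to 2 UMIs each. In iSuRe-Cre heart 5 cells had a Ccl21a UMI and 1 held 544 of the 918. Cells with lymphatic markers (Prox1, Mmrn1) held 916 of the 918 UMIs (99.8%) in iSuRe-Cre heart, 1217 of 1297 (93.8%) in iSuRe-Cre liver and 1529 of 2719 (56.2%) in cells without a hashtag. In the 19 cells of the lymphatic gate, hepatocyte markers summed to 4935 CPM, against 152 in the sinusoidal gate and 3726 in free RNA. Whether some cells with lymphatic markers were mixed with hepatocyte RNA was not tested. The ratio to control was 167 in heart (46.2 to 1385, from 2 control UMIs) and 28.9 in liver. The liver control's 0 UMIs were set to 3 counts. Over the alternatives the heart and liver ratios ran from 4.4 to 186 and from 7.39 to 53.8. Over capillary cells alone the liver ratio was 2.6, again with 3 counts set for the control's 0 UMIs. That control had 13 cells, so the lower value is not read as a smaller difference. In iSuRe-Cre heart 917 of the 918 UMIs were in cells not above the WPRE limit. Cells above it had 1 UMI (0.362 CPM), against 0.72 in control heart cells above it, too few UMIs for a ratio. In iSuRe-Cre liver Ccl21a was at 45.3 CPM in cells above the limit and 205 in the others. Cells with lymphatic markers numbered 16 in iSuRe-Cre heart, 13 in iSuRe-Cre liver and 0 to 2 in each of the other groups, where none of them had a Ccl21a UMI.

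Ccl5 (chr11:83525778-83530518, minus strand), a ligand that T and NK cells make, was at 50.2 CPM in control heart (152 UMIs), 128 in iSuRe-Cre heart (1060 UMIs) and 4.83 in iSuRe-HadCre heart (15 UMIs). In liver it was at 89.7 in control (56 UMIs), 18.5 in iSuRe-Cre (173 UMIs) and 189 in iSuRe-HadCre (129 UMIs). These levels were set by single cells: 1 cell held 70.4% of the UMIs in control heart, 53.3% in iSuRe-Cre heart, 96.4% in control liver and 99.2% in iSuRe-HadCre liver. The cell in control liver also passed the T or NK markers, whereas no Ccl5 UMI of iSuRe-HadCre liver or of a heart group was in such a cell. With the top cell of each group left out, a choice made after seeing the data, iSuRe-Cre liver was at 4.82 times control in place of 0.206 (0.152 to 0.284), and over cells above the WPRE limit iSuRe-Cre heart was at 0.126 of control in place of 2.54 (2.15 to 3.04). In iSuRe-Cre heart Ccl5 was at 6.9 in cells above the WPRE limit and 188 in the others. Free RNA held 58.5 and the T or NK gate 1633.

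Ccl2 (chr11:82035571-82037453, plus strand), which recruits monocytes through CCR2, was at 5.61 CPM in control heart (17 UMIs), 47.1 in iSuRe-Cre heart (391 UMIs) and 2.26 in iSuRe-HadCre heart (7 UMIs), and at 0, 16.8 (157 UMIs) and 23.4 (16 UMIs) in liver. Only iSuRe-Cre heart was above its free RNA level of 18.4 by more than counting error, at 8.39 times control (5.17 to 14.6), and 142 of its 391 UMIs were in 1 cell. Ccl2 in iSuRe-HadCre heart was at 0.402 (0.141 to 1.02) of control, not apart beyond counting error. Macrophages had 280, and their receptor gene Ccr2 107. Cells with macrophage markers held 10 of 391 Ccl2 UMIs (2.56%) in iSuRe-Cre heart and 33 of 157 (21%) in iSuRe-Cre liver.

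Cxcl1 (chr5:90891241-90893115, plus strand), which attracts neutrophils through CXCR2, was low in every EC group. It was at 12.9, 15.3 and 4.51 CPM in control, iSuRe-Cre and iSuRe-HadCre heart (39, 127 and 14 UMIs) and at 1.6, 10.1 and 10.2 in liver (1, 94 and 7 UMIs). Free RNA held 14.1, so that none of these levels stood above it by more than counting error. The ratio to control was 0.351 (0.176 to 0.66) in iSuRe-HadCre heart, and 6.28 (1.1 to 251) in iSuRe-Cre liver from 1 control UMI. Hepatocytes had 122 CPM. The 250 bases before its start held 2 overlapping matches to the NF-kappaB consensus, 71 to 62 and 70 to 61 bases before the start. Its receptor gene Cxcr2 was at 62.1 in the neutrophil-lineage gate.

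Ackr1 (chr1:173331886-173333750, minus strand), the venular receptor of inflammatory chemokines, was nearly absent from heart ECs, with 2, 2 and 1 UMIs in control, iSuRe-Cre and iSuRe-HadCre. In liver it was at 12.8 CPM in control (8 UMIs, 5.53 to 25.3), 16.8 in iSuRe-Cre (157 UMIs, 14.3 to 19.7) and 4.39 in iSuRe-HadCre (3 UMIs, 0.906 to 12.8). No neighbours in its order of groups were apart beyond counting error, though iSuRe-HadCre liver was at 0.261 (0.0533 to 0.778) of iSuRe-Cre liver and iSuRe-Cre liver at 69.8 times iSuRe-Cre heart (19 to 581). In iSuRe-Cre liver 81 of the 157 UMIs (51.6%) were in cells with large-vessel markers, which were 21.9% of the cells, and the large-vessel cells of the Tcf15 gating had 30.5 CPM, against 13 in sinusoidal cells. Free RNA held 8.67.

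**Figure D4:**
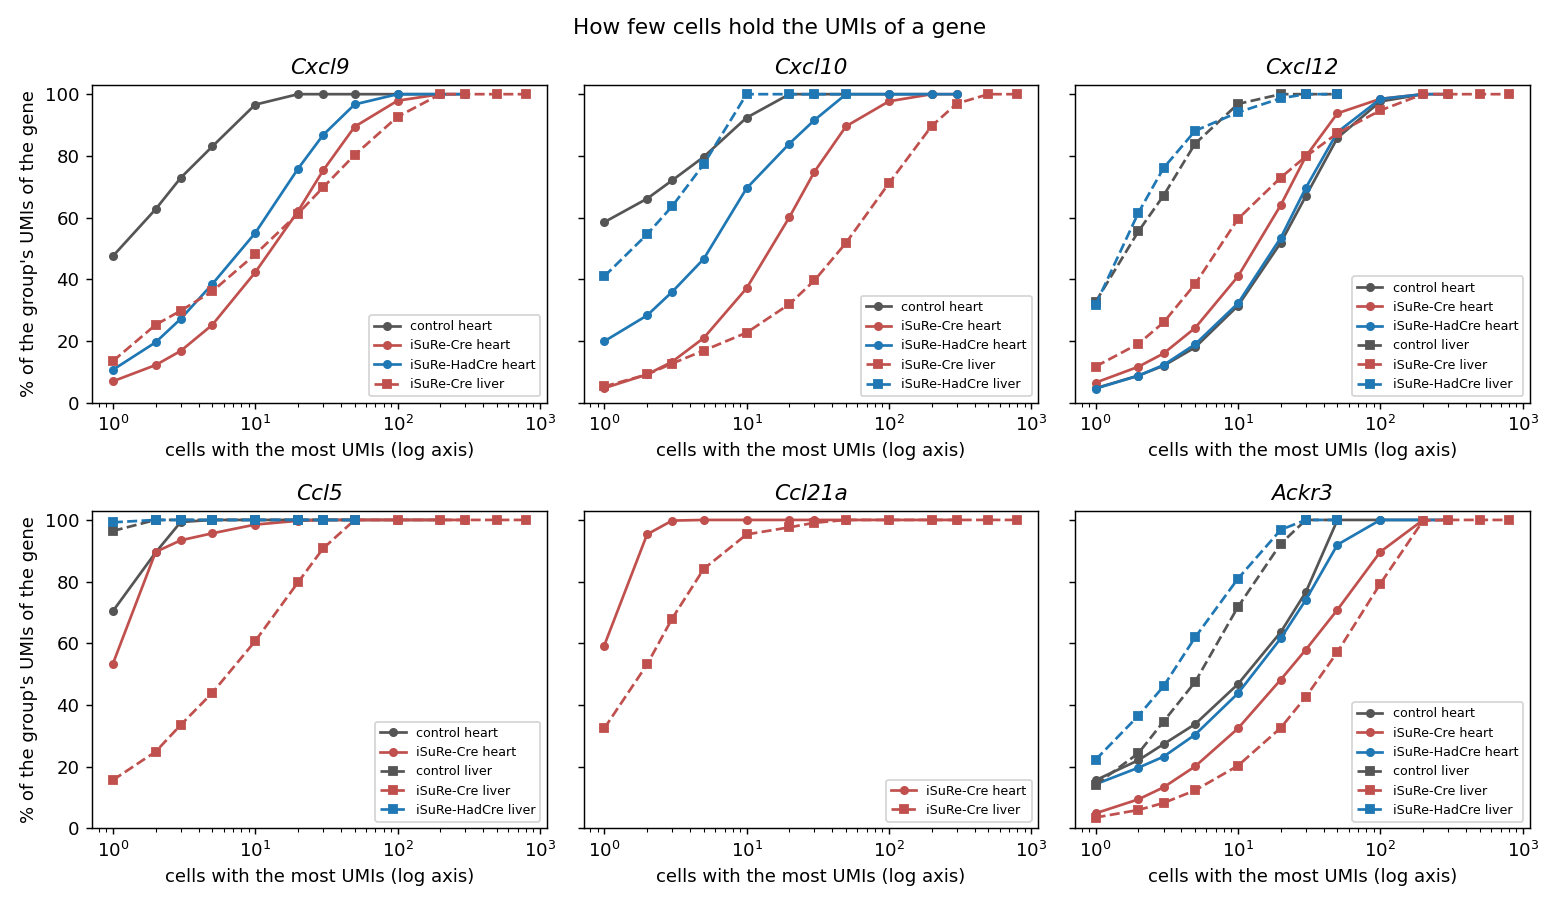
Cumulative share of a gene's UMIs (percent) against the number of cells with the most UMIs, for 6 of the genes and each group with at least 20 UMIs. Some curves start high, such as Ccl5 in iSuRe-HadCre liver, where a single cell held 99.2%. For Cxcl10 in iSuRe-Cre liver the top 50 cells held 51.8%.

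Counted over the members with at least 20 UMIs in a comparison, a ratio of at least 2 or at most 0.5 was reached by 5 of 9 in iSuRe-Cre against control heart, all higher (Cxcl9, Cxcl10, Ccl2, Ccl5, Ccl21a), where 9.86% of all genes were past it. In iSuRe-HadCre against control heart it was 4 of 8, with Cxcl9 higher and Cxcl1, Ccl2 and Ccl5 lower, beside 7.53% of all genes. The Ccl2 interval there (0.141 to 1.02) held 1. Between iSuRe-HadCre and iSuRe-Cre heart it was 7 of 9, with Cxcl12 higher and the other 6 lower, beside 11.3%. In liver the counts were 8 of 10 for iSuRe-Cre against control (5 higher, 3 lower), beside 16.9% of all genes, 3 of 5 for iSuRe-HadCre against control (all higher), beside 8.19%, and 7 of 10 between iSuRe-HadCre and iSuRe-Cre (2 higher, 5 lower), beside 14.2%. Liver against heart gave 5 of 7 in control (1 higher, 4 lower), beside 14.6%, 6 of 10 in iSuRe-Cre (2 higher, 4 lower), beside 17%, and 5 of 8 in iSuRe-HadCre (4 higher, 1 lower), beside 12%. The members were chosen by these levels, so the counts describe the choice and nothing is read from the difference to all genes. The 3 comparisons within an organ share groups and are not independent of each other.

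Of the 40 ligand genes on the wider list, 20 had enough UMIs in iSuRe-Cre against control heart, 8 of them higher and 3 lower. Of all genes 9.86% were past 2-fold there, and 5 of the 8 higher ligands are members chosen by these levels, so the list's counts and medians partly restate that choice in every comparison. Those outside the members were Ccl3, Ccl4 and Ccl12, ligands that attract monocytes and other leukocytes, which were higher (Ccl3 with 21 UMIs against 0), and Ccl6, Ccl11 and Ccl24, which were lower. In iSuRe-HadCre heart 4 of 17 were higher and 5 lower, beside 7.53% of all genes, Ccl4 among the higher at 51.2 against 1.65 CPM. In iSuRe-Cre liver 8 of 20 were higher and 4 lower, beside 16.9%, with Cxcl14 at 44.9 against 12.8 and Pf4, a platelet and macrophage chemokine, at 21.1 against 1.6, and in iSuRe-HadCre liver 3 of 8 were higher and 2 lower, beside 8.19%. The list's median log2 ratio was 0.19 and 0.08 in the heart comparisons and 0.58 and 0.79 in the liver ones, beside -0.06, 0.13, -0.10 and 0.00 over all genes.

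The other atypical receptor genes were low. Ackr2, which degrades inflammatory CC chemokines, was at 10.6, 19.6 and 17.4 CPM in control, iSuRe-Cre and iSuRe-HadCre heart and at 6.41, 32.3 and 7.32 in liver, and Ccrl2, which presents the chemoattractant chemerin, was at 6.6, 15.7 and 15.1 in heart and 27.2, 8.35 and 16.1 in liver. Of the 5 atypical receptor genes, Ackr4 and Ccrl2 were past 2-fold in iSuRe-Cre heart and Ccrl2 in iSuRe-HadCre heart, all higher. In iSuRe-Cre liver Ackr2 was higher and Ackr3 and Ccrl2 were lower, and in iSuRe-HadCre liver none of the 2 counted was past 2-fold. Of the adhesion genes that act beside chemokines, Sele (26.3 against 11.6) and Selp (6.14 against 1.98), encoding E-selectin and P-selectin, were higher in iSuRe-Cre heart, Vcam1 was lower in iSuRe-HadCre heart and Selp in iSuRe-HadCre liver. None of the 7 adhesion genes counted in iSuRe-Cre liver was past 2-fold. Dpp4, a protease that trims CXCL9, CXCL10 and CXCL12, was at 210 CPM in iSuRe-Cre liver and 40.1 in control liver. Of the 7 genes of chemokine-binding proteoglycans none of those counted was past 2-fold in either heart comparison with control. In liver 1 of 7 was higher and 2 were lower in iSuRe-Cre, and 2 of 6 were lower in iSuRe-HadCre, the syndecan genes Sdc1 and Sdc2 in both. Over all genes 9.86% (iSuRe-Cre) and 7.53% (iSuRe-HadCre) were past 2-fold against control in heart, and 16.9% and 8.19% in liver. With lists this short, nothing is read from the difference of these counts to those shares.

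Markers of other cells differed between the groups too. The 6 leukocyte markers were all detected in each group and summed to 65.8 to 116 CPM in heart and to 415, 458 and 154 in control, iSuRe-Cre and iSuRe-HadCre liver. The 6 hepatocyte markers summed to 499 in iSuRe-Cre heart and 458 in iSuRe-Cre liver, and to 48.3 to 87.1 in the other groups. Among the hashtag groups they were thus high in the same 2 as Cxcl10 and Ccl21a. Cxcl9 differed, since it was nearly as high in iSuRe-HadCre heart (97.3 CPM) as in iSuRe-Cre liver (113). The hepatocyte markers summed to 58 in iSuRe-HadCre heart. The same markers summed to more in Cdh5-positive cells without a hashtag, at 1418, and in free RNA, at 3726. Hepatocytes themselves had Cxcl10 at 369 CPM. Cells with hepatocyte markers held 1 of the 4373 Cxcl10 UMIs of iSuRe-Cre heart and 43 of the 2848 (1.51%) of iSuRe-Cre liver. Across 20 populations of the library, the genes whose level was most like that of Cxcl9, by Pearson's r of log levels over 13446 genes, were the interferon-stimulated Ifit2 (0.977), Rsad2 (0.951) and Oasl1 (0.938), and those like Cxcl10 were Ube2l6 (0.808), Ifit2 (0.804) and Lgals3bp (0.798). Cxcl12 was most like Sparcl1 (0.921), Cxcl16 like Man1c1 (0.945) and the sinusoidal gene Stab1 (0.939), Ackr3 like Fbln2 (0.935) and Ackr1 like Ehd3 (0.928). The populations share a library and in part cells, and these values are a description.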

How the data were processed

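Reads of 1 library were aligned and counted by the authors with Cell Ranger 7.1.0 on GRCm38 and Ensembl 98 gene models with transgene sequences added, and the deposited values are unfiltered, unnormalized UMI counts. The 7 hashtag and multiplexing features without a group in the labels were not used. Barcodes were kept with 2000 to 75000 gene UMIs, more than 500 genes, and mitochondrial and haemoglobin shares below 5%. Cdh5-positive means a natural log of 1 plus 10000 times the share above 0.9. A cell was assigned to a group by 1 hashtag with at least 25 UMIs (140 for that of iSuRe-Cre liver, 5 times its median of 28) and the other 5 below their minimums. Cells with several hashtags were left out as doublets, and no further doublet caller was run. Levels are CPM, summed UMIs of a gene scaled by the group's summed UMIs, with exact Poisson, binomial and conditional 95% intervals. A ratio needed 20 UMIs over both groups, and a group at 0 was set to 3 counts. Named genes were the 10 members, listed chemokine genes past 2-fold, and the genes most like a member. Some listed genes are not reported here. Members and lists were chosen with earlier results of these data known. Scripts were tested on simulated data. Alternatives covered hashtag calls with HTODemux (Seurat 5.3.0), other hashtag minimums, the WPRE limit, quality limits, free RNA, the mean over cells and dropping the minimum of UMIs. Scripts ran in Python 3.11.15 with scipy 1.17.1, and in R 4.3.3.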

Additional observations from a re-analysis of the deposited data

Results flagged for a closer look

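Ccl5 stood in opposite directions in the organs for both alleles. The ratio of iSuRe-Cre to control was 2.54 in heart and 0.206 in liver, and that of iSuRe-HadCre to control was 0.0964 in heart and 2.1 in liver. The difference between the organs was not tested. Single cells held most of the UMIs in 4 of the 6 groups, and with the highest cell of each group left out, a choice made after seeing the data, the ratio of iSuRe-Cre to control in liver was 4.82.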

How the results depend on the processing

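No paired analysis was possible because each group is 1 hashtagged sample. Over the alternatives listed in the methods, 527 of 537 ratios past 2-fold kept their direction and 499 were still past it. Of these, 50 came from dropping the minimum of UMIs, which leaves a counted ratio unchanged, so all 50 stayed past 2-fold by design. That setting is also among the 11 alternatives counted for single ratios. With HTODemux alone 37 of 50 were still past it and 5 turned. HTODemux gave 660, 535, 517, 230, 854 and 287 cells in control, iSuRe-Cre and iSuRe-HadCre heart and liver. Of the members' ratios, those that turned were the following. With HTODemux, iSuRe-HadCre against control heart became 1.02 for Ccl2 and 1.38 for Ccl5, control liver against control heart 1.02 for Cxcl9 and 1.13 for Cxcl10, and iSuRe-HadCre liver against heart 0.858 for Cxcl1. With a hashtag minimum of 50 UMIs, Ccl21a in iSuRe-HadCre against iSuRe-Cre liver became 1.88. With WPRE above 0.5 in every group, Ccl5 became 0.126 in iSuRe-Cre against control heart, 2.56 in liver and 2.28 in iSuRe-Cre liver against heart. With the mean over cells, Ccl5 in iSuRe-HadCre against control liver became 0.913. Of the alternatives added after seeing the data, leaving out the top cell gave 4.82 for Ccl5 in iSuRe-Cre against control liver and 0.0956 in iSuRe-HadCre against iSuRe-Cre liver. Control liver had only 13 capillary cells and iSuRe-HadCre liver 33. Capillary cells alone gave 2.29 for Ackr3 in iSuRe-Cre against control liver, 0.00901 and 0.0476 for Ccl5 in iSuRe-HadCre against control and iSuRe-Cre liver, 0.984 for Cxcl16 in iSuRe-Cre liver against heart and 0.921 for Ackr3 in iSuRe-HadCre liver against heart. The cause was not tested.

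Counts of members past 2-fold moved by over 1.5 times as follows. In iSuRe-HadCre against control liver, 3 became 5 with a hashtag minimum of 10, 1 with HTODemux, 1 with the mean over cells, 7 with no minimum of UMIs and 1 without the top cell. In iSuRe-HadCre liver against heart, 5 became 3 with a hashtag minimum of 10 or without cells above 20000 UMIs, 2 without the top cell and 1 in capillary cells. In control liver against heart, 5 became 3 with a hashtag minimum of 50 and 2 in capillary cells. In iSuRe-HadCre against iSuRe-Cre heart, 7 became 4 with the WPRE limit, and in iSuRe-Cre against control heart 5 became 3 without cells above 20000 UMIs. Cxcl9 in iSuRe-Cre against control heart ran from 10.5 to 47.8 over the same alternatives, and Cxcl10 from 9.9 to 18.4. In liver the ranges were 6.32 to 29.9 and 5.99 to 61.2. Depth limits the liver control and iSuRe-HadCre groups, where 3 counts are 4.81 and 4.39 CPM.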
